A study of Mus musculus with 6 samples.

Results

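The genes described here encode the ligands Cd200, Cd47 and Cd24a, cell-surface signals that restrain myeloid cells, and the receptors Cd200r1, Cd200r4 and Sirpa. Of these receptors, Cd200r1 and Sirpa are inhibitory, while Cd200r4 is a relative of Cd200r1 that pairs with an activating adaptor. They were chosen by symbol, 6 genes of the 20494 gene rows in the authors' deposited table, and Cd200 and Cd47 were known to be among the called genes when the group was drawn up. All 6 were found, each in 1 row, and all 6 had an adjusted p. The 6 libraries of the study hold whole lung RNA of male C57BL/6 mice at 4 months of age. In 3 of them the genotype is lincRNA-Cox2 KO, the loss of a long noncoding RNA gene next to Ptgs2, and in the other 3 it is wild type. No mouse was treated, and the knockout is the single difference that the labels give between the groups. How the allele was made, the C57BL/6 substrain and any shared litters were not stated. The deposited table gives the mean normalized count of each genotype (counts per gene after scaling each library by its size factor) and the authors' DESeq2 comparison of the genotypes, whose log2 fold change is shrunken towards 0 and is given here with its standard error and adjusted p. A gene is said to be called where that adjusted p is under 0.05. The values of single libraries could be derived only for low genes, so each error below is the authors' standard error over 3 libraries per genotype.

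CD200 is a membrane glycoprotein of endothelial cells, neurons and lymphocytes that binds CD200R1 on macrophages, granulocytes and other leukocytes and dampens their activation. CD47 is found on nearly all cells, red cells included, and binds SIRPα on macrophages and neutrophils, which recruits phosphatases and holds back phagocytosis. CD24 is a small, heavily glycosylated, lipid-anchored protein of epithelial cells, immature lymphocytes and granulocytes, which in the mouse is bound by Siglec-G. In the lung, alveolar macrophages carry CD200R1 and SIRPα and meet CD200 and CD47 on the neighbouring epithelium and endothelium.

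The 2 main ligands were called in opposite directions, Cd200 lower and Cd47 higher in knockout lung, while Cd24a and the 3 receptors were not called. Of all genes, 184 of 16902 tested genes were called, a background of 1.09%, made of 0.592% higher and 0.497% lower. Since the members were drawn up with these calls known, the count of 2 among 6 is a description. It was the same with a call at an adjusted p under 0.1 (background 1.77%), with adjustment over every gene with a p-value (0.82%) and with adjustment over genes whose mean was 50 or more (1.2%). The median log2 ratio of all tested genes was -0.0013, so the scale of the comparison was centred close to 0. The targeted transcript, Lincrna-cox2, had means of 311 normalized counts in wild type and 0.666 in knockout. The lung markers Sftpc, Sftpb, Ager, Cldn18, Scgb1a1, Foxj1, Cdh5 and Marco were all present, from 498 (Marco) to 82187 (Sftpc) normalized counts in wild type, and none was called (smallest adjusted p = 0.360, for Marco).

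**Figure D1:**
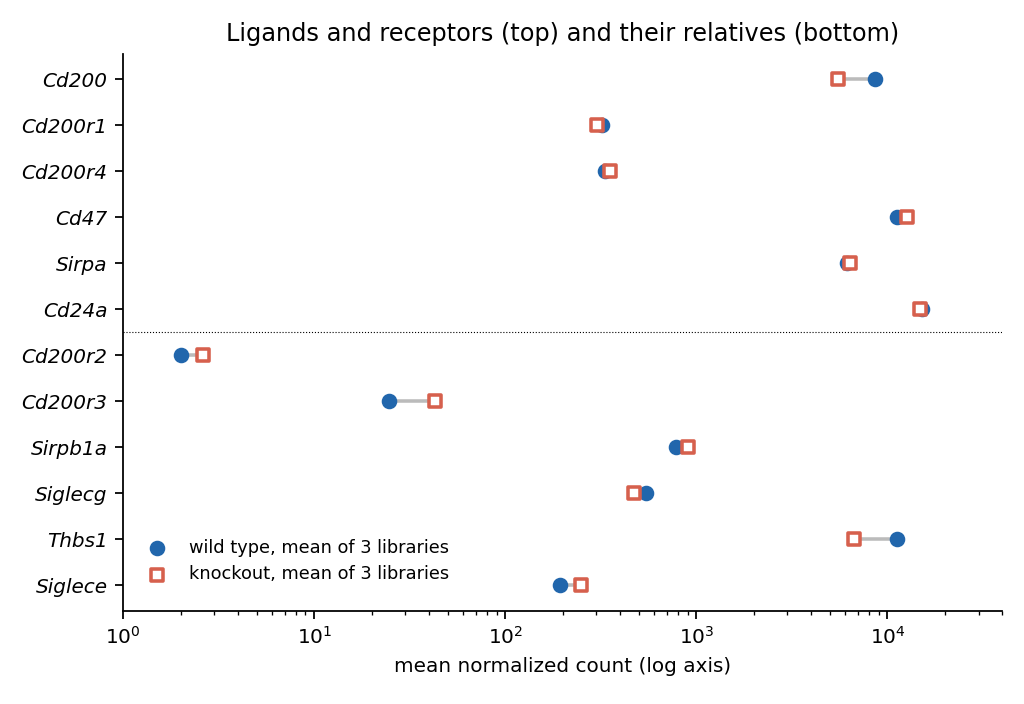
Mean normalized count (log axis) of the 6 ligand and receptor genes and, below the dotted line, of their relatives; filled circles are wild type and open squares knockout, each the authors' mean of 3 libraries, with no error bar because the table gives no values of single libraries at these levels. Among the 6 upper genes the symbols stand clearly apart for Cd200, at 8639.7 and 5516.

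Cd200 (kgCluster11018) is a minus-strand gene of chromosome 16 (45382135 to 45409053, mm10). The 250 bases before its start are shown because Cd200 had the largest difference of the group, and they are taken from RefSeq (GRCm38.p6, chr16:45409054-45409303, minus strand, 5′ to 3′).
Cd200: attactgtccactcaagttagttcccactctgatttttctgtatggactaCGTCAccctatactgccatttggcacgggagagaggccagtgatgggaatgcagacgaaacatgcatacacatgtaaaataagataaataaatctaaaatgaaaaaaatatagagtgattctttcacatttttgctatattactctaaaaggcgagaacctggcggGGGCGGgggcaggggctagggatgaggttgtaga
The capitals mark the matches to the motifs searched on both strands. They are 1 half-site of the cAMP response element (TGACG, here on the opposite strand, bases -200 to -196 from the start) and 1 GC box (GGGCGG, bases -34 to -29). The half-site was held by 17.8% and the GC box by 32.7% of 32851 mouse promoter windows of the same length. The full cAMP response element (TGACGTCA, 1.55% of windows), the AP-1 site (TGANTCA, 6.75%), the NF-kB site (7.25%), the CArG box (1.47%), the CCAAT box (CCAAT, 33.8%), the E-box (CACGTG, 6.02%) and the TATA box (TATAAA, 12.4%) had no match in these letters. The half-site is contained in the full element. The window is 42.4% G and C, against a median of 52.4% over all windows. The same table holds windows for 2 start sites of Cd47, which are 73.2% and 74.4% G and C, each with 2 half-sites of the cAMP response element and 2 GC boxes. The letters of these windows are not shown, since exons of other Cd47 transcripts reach into them. A match of letters is a description and not a measured site.

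Of the ligands, Cd200 had a mean of 8639.7 normalized counts in wild type and 5516 in knockout, and so fell 1.57-fold in the authors' deposited table. The shrunken log2 fold change was -0.45 ± 0.078 (SE), and the authors' DESeq2 adjusted p was 8.91e-06. The 95% interval, from 1.96 standard errors either side, was -0.60 to -0.29. Intervals here are on the shrunken scale, and this one did not hold the log2 ratio of means of Cd200 (-0.65). Among the 84 genes called lower, Cd200 had rank 13 by the shrunken value, rank 31 by the ratio of means and rank 11 by mean level. Cd200 was chosen with this difference known. In whole lung, fewer cells that carry Cd200 and less Cd200 RNA per cell cannot be told apart. Per kilobase of its longest GENCODE coding transcript, Cd200 had 3681 normalized counts in wild type, above 96.2% of tested genes with a known length.

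Cd47 (kgCluster11046, chromosome 16, 49800533 to 49915010, plus strand) rose from 11199.9 to 12628 normalized counts, 1.13-fold higher in knockout in the authors' deposited table. For Cd47 the shrunken log2 fold change was 0.16 ± 0.045 (SE), the 95% interval 0.073 to 0.25 and the DESeq2 adjusted p 0.0356. Its log2 ratio of means (0.17) was the smallest in absolute size of the 184 called genes. Among the 100 genes called higher, Cd47 had rank 100 by the ratio of means and rank 5 by mean level. The standard error of Cd47 was also smaller than those of the other members, which lay between 0.060 for Sirpa and 0.083 for Cd200r1.

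Cd24a (kgCluster1954, chromosome 10, 43578284 to 43584265, plus strand) was the most abundant of the group per kilobase, with 8351 normalized counts per kilobase in wild type, above 98.9% of tested genes. Its means were 15165 in wild type and 14859 in knockout. The shrunken log2 fold change of Cd24a was -0.024 ± 0.065 (SE), with a 95% interval of -0.15 to 0.10 and a DESeq2 adjusted p of 0.997. On the shrunken scale that interval includes small differences in either direction and does not reach the shrunken value of Cd200. Genes with near-identical copies elsewhere can gain or lose reads in counting, and for Cd24a and the receptor families below the counting rule was not stated.

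Of the receptors, Cd200r1 (kgCluster11009, chromosome 16, 44765736 to 44794978, plus strand), the inhibitory receptor of CD200, had means of 319 in wild type and 303 in knockout. The shrunken log2 fold change of Cd200r1 was -0.045 ± 0.083 (SE), with a 95% interval of -0.21 to 0.12 and a DESeq2 adjusted p of 0.997. Cd200r4 (kgCluster11010, chromosome 16, 44811733 to 44839150, plus strand) encodes a relative of that receptor that pairs with an activating adaptor instead. It had means of 332 and 353 (shrunken log2 fold change 0.055 ± 0.083, 95% interval -0.11 to 0.22, DESeq2 adjusted p = 0.991). On the shrunken scale both intervals include 0 and modest changes in either direction, but neither reaches the shrunken change of Cd200. Sirpa (kgCluster16687, chromosome 2, 129592835 to 129632228, plus strand), the receptor of CD47, had means of 6144 and 6368 (shrunken log2 fold change 0.044 ± 0.060, 95% interval -0.073 to 0.16, DESeq2 adjusted p = 0.983). No test of the difference between a ligand's and its receptor's change could be made from the table.

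**Figure D2:**
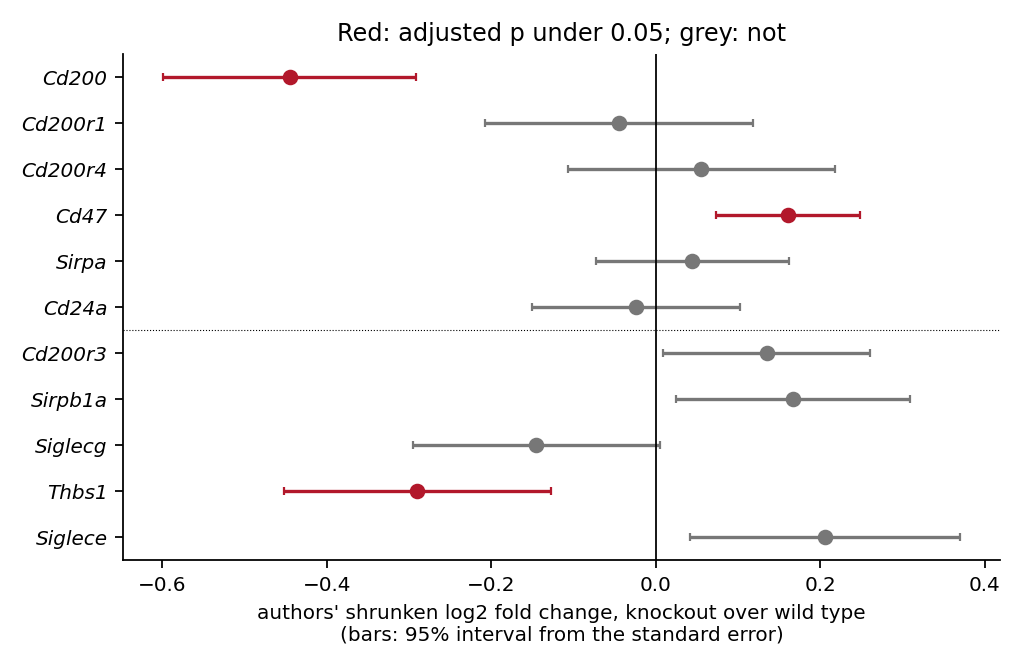
The authors' shrunken log2 fold change, knockout over wild type, of the 6 members and, below the dotted line, of those relatives with an adjusted p; bars are 95% intervals from the standard error, red marks an adjusted p under 0.05. Cd200 lies at -0.45 and Cd47 at 0.16, and the intervals of Cd24a and the 3 receptors include 0.

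On the scale of normalized counts per kilobase of the longest coding transcript, the wild type order was Cd24a (8351), Cd200 (3681), Cd47 (2133), Sirpa (1543), Cd200r1 (169) and Cd200r4 (165). In knockout Cd47 (2405) stood above Cd200 (2350.2) and Cd200r4 (176) above Cd200r1 (160.1). The table gives no spread over libraries for these levels, so neither the order of Cd200 and Cd47 in knockout nor that of the 2 receptors in either genotype can be read as a difference. The ligand Cd200 exceeded the receptor Cd200r1 per kilobase 21.8-fold in wild type and 14.7-fold in knockout. For Cd200 over Cd200r4 these ratios were 22.3 and 13.3. For Cd47 over Sirpa they were 1.38 and 1.50. These ratios describe whole lung RNA and carry no error of their own.

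Further ligands and receptors of the same families were listed to place the 6 genes, and 6 of the 9 entries were in the table, 5 of them with an adjusted p. Of those 5, 1 was called (background 1.09%), Thbs1, which was lower. Thbs1 encodes thrombospondin-1, a secreted matrix protein that also binds CD47, and its means were 11259 in wild type and 6728 in knockout, 1.67-fold lower in the authors' deposited table. The shrunken log2 fold change of Thbs1 was -0.29 ± 0.083 (SE), with a DESeq2 adjusted p of 0.0439, and with adjustment over every gene with a p-value this became 0.0531, above the threshold. Per kilobase, Cd47 and Thbs1 stood at a ratio of 1.11 in wild type and 2.09 in knockout. These ratios carry no error of their own, and the log2 ratio of means of Thbs1 (-0.74) was shrunken to -0.29. An annotated gene, Gm29233, overlaps Thbs1 on the opposite strand, and the library kit named does not mark strand, so reads of the pair cannot be told apart.

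Sirpb1a, a SIRP family receptor with an activating adaptor, had means of 779 and 908, with an unadjusted p of 0.0217 and an adjusted p of 0.427 in the authors' DESeq2 comparison. Siglecg, the receptor of CD24, had means of 545 and 473 (unadjusted p = 0.0575, adjusted p = 0.618 in the same DESeq2 comparison). Siglece, an inhibitory sialic acid receptor of myeloid cells, had means of 194 and 249 (unadjusted p = 0.0142, adjusted p = 0.347 by DESeq2). Per kilobase, Cd24a exceeded Siglecg 39.4-fold in wild type and 44.4-fold in knockout.

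The remaining CD200 receptor genes were low enough for the reads of each library to be derived from the group means, with libraries called A, B and C in each genotype because they carry no replicate number. Cd200r3, an activating relative known from basophils and mast cells, had 24, 29 and 21 reads in the wild type libraries and 57, 44 and 29 in the knockout libraries. After scaling, the wild type libraries ranged from 21.8 to 28.8 normalized counts and the knockout libraries from 29.7 to 55.6, so the groups came close. An exact 2-sided permutation test of 3 against 3 libraries cannot go below 0.1, and the authors' DESeq2 adjusted p was 0.528. Cd200r2 had 4, 0 and 2 reads in wild type and 5, 2 and 1 in knockout, with no adjusted p, a level too low to compare.

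The CD200 family and Cd47 are neighbours on chromosome 16, so the genes around them were examined. Cd200r1, Cd200r4, Cd200r2 and Cd200r3 follow each other on the plus strand, with starts 0.643 to 0.465 Mb before that of Cd200, and Cd47 starts 4.39 Mb after it. Within 1 Mb of the Cd200 start, 16 genes were tested and 3 were called (18.8%), all lower: Slc35a5, Cd200 and Abhd10. The window was centred on Cd200, which was chosen with its call known, so this share was fixed in part by that choice. Without the members 2 of 13 were called, beside 145 of 14461 placed genes (1%) on all other chromosomes. Slc35a5, a gene of the nucleotide sugar transporter family, had means of 2029 and 1534 (shrunken log2 fold change -0.31 ± 0.070, DESeq2 adjusted p = 0.00193). Abhd10, a mitochondrial hydrolase gene, had means of 603 and 463 (shrunken log2 fold change -0.27 ± 0.077, DESeq2 adjusted p = 0.0464). Cd200r1 and Cd200r4, in the same window, were not called. The nearest tested neighbours of Cd200 were Btla, with means of 1053 and 1140.5, and Gcsam, with means of 87.5 and 94.7, and neither was called (DESeq2 adjusted p = 0.914 and 0.997).

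Between Atp13a4 and Nxpe3, a stretch of 26.5 Mb from 29395853 to 55895285 that holds 4 of the 6 members, 11 of 145 tested genes were called (7.59%), 5 higher and 6 lower. The stretch was bounded by its end genes, Atp13a4 and Nxpe3, which are themselves called, so its share was fixed in part by that choice. Without these end genes 9 of 143 were called (6.29%), and without the members as well 7 of 139. On the rest of chromosome 16 the count was 6 of 327 (1.83%), and on all other chromosomes 145 of 14461 placed genes (1%). Of the 6, Mb21d2 (start 28826176) and Tbc1d23 (start 57168862), both called higher, lay near the ends of the stretch. Chromosome 16 as a whole had 17 of 472 called (3.6%), beside 28 of 883 (3.17%) on chromosome 1, which carries the targeted locus. Besides the genes already named, the called genes of the stretch were Atp13a4 (2.15-fold higher), Stfa2l1 (2.37-fold higher), Retnlg, a neutrophil gene (1.56-fold higher), Nxpe3 (1.72-fold higher), Hes1, a Notch target (1.39-fold lower), B4galt4 (1.31-fold lower) and Nfkbiz (1.43-fold lower), all as ratios of means in the authors' deposited table. These changes went in both directions on either side of Cd200. The part that chromosomal position has in the values of Cd200 and Cd47 was not tested.

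**Figure D3:**
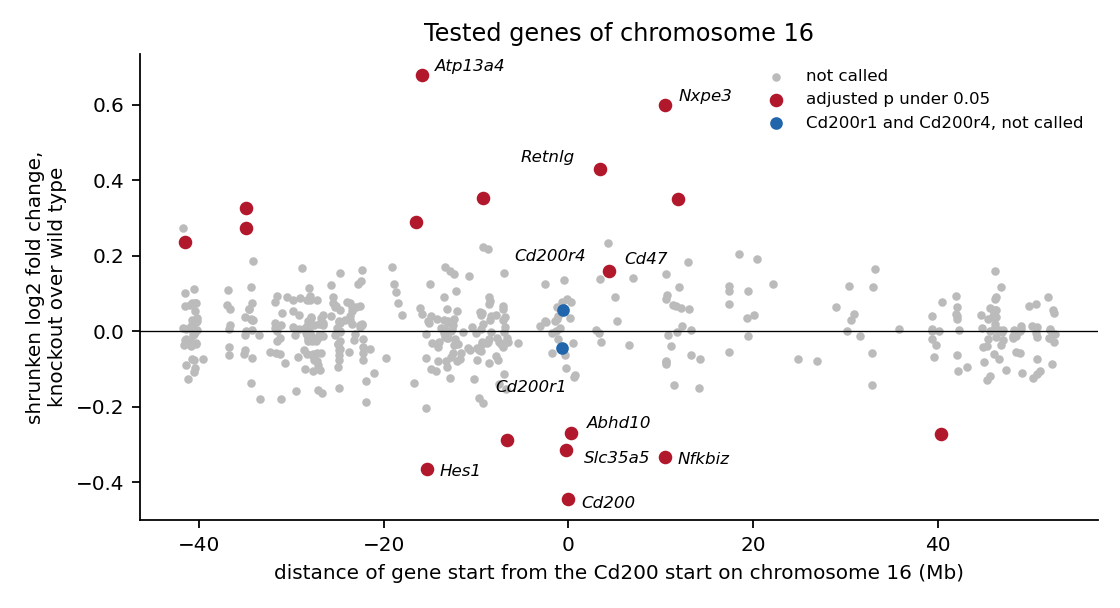
Tested genes of chromosome 16 by the distance of their start from that of Cd200 (Mb) and the authors' shrunken log2 fold change, knockout over wild type; red points are called genes (adjusted p under 0.05), blue points Cd200r1 and Cd200r4, grey points all others. Cd200 is the lowest point at -0.45, with Slc35a5 (-0.31) and Abhd10 (-0.27) beside it, while Atp13a4 and Nxpe3 lie at 0.68 and 0.60.

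Of the neighbours of Cd47, Ift57, an intraflagellar transport gene, ends 35.4 kb before the GENCODE start of Cd47 (49800533). The 2 promoter windows of Cd47 described above lie further into that gene, ending at 49855653 and 49855660. Ift57 had means of 1206 and 1474 and narrowly missed the threshold (shrunken log2 fold change 0.23 ± 0.068, DESeq2 adjusted p = 0.0525). Bbx, on the other side, had means of 2391 and 2567 (DESeq2 adjusted p = 0.739). Gtpbp8, before Cd200r1, was not called either (391 and 421, DESeq2 adjusted p = 0.942). On the other chromosomes, Il1bos and Stk35 beside Sirpa had DESeq2 adjusted p-values of 0.997 and 0.911, and 1700021F05Rik and Qrsl1 beside Cd24a had 0.997 and 0.977.

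Called genes with a known position were compared with Cd200 by their log2 ratio of means (-0.65 for Cd200). The 5 nearest were Sik1 (-0.65), 9530082P21Rik (-0.66), Slc13a4 (-0.67), Pqlc1 (-0.67) and Dusp2 (-0.71). The likeness rests on 2 group means per gene, since the libraries of Cd200 could not be told apart. None of the 5 lies on chromosome 16. Sik1, a salt-inducible kinase gene, had means of 7392 and 4723, and Dusp2, a phosphatase gene of activated leukocytes, had means of 245 and 150.0.

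Genes downstream of these receptors were not called. Of 19 tested genes of receptor signalling, which include the phosphatase Ptpn6, the adaptors Dok1, Dok2 and Tyrobp, and Src family kinases, 0 were called in the authors' DESeq2 comparison, and 3 had an unadjusted p under 0.05, all higher. Over all tested genes 4.43% were higher and 4.04% lower at that level, and 1.09% were called. The median log2 ratio of the list was 0.0073. The phosphatase gene Ptpn11 (8715 and 8760.0 normalized counts) and the kinase gene Lyn (6200 and 6457) were its most abundant members. Of 18 other inhibitory ligands, 0 were called by DESeq2 and 1, Cd86, had an unadjusted p under 0.05, with a median log2 ratio of 0.0048. The adhesion receptor gene Pecam1 (30370 and 30323) and H2-D1 (28631 and 30239) were the most abundant. Of 21 genes of apoptotic cell uptake, 0 were called and 0 had an unadjusted p under 0.05 in the DESeq2 comparison (median 0.0029), among them the scavenger receptor Cd36 (46233 and 50504) and Lrp1, a calreticulin receptor (15338 and 15058).

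Of 17 genes listed as other inhibitory receptors of myeloid cells, 1 was called by DESeq2, higher in knockout (background 0.592%). An unadjusted p under 0.05 in the same comparison was found for 5, all higher (background 4.43%). In the mouse an inhibitory role is not established for Gp49a, Siglec1 and Cd33 of this list, so the counts cover the list as drawn up. The mean was higher in knockout for 16 of the 17, against 49.4% of all tested genes. The median log2 ratio was 0.16. The called gene was Cd33, a sialic acid-binding receptor, at 517 and 664 normalized counts (shrunken log2 fold change 0.28 ± 0.072, DESeq2 adjusted p = 0.0180). Gp49a and Pirb, receptors of the immunoglobulin family, had means of 600.5 and 782 and of 2431 and 2903 (DESeq2 adjusted p = 0.0716 and 0.0779). Siglec1 was the member with a lower mean (912 and 796). Neutrophil genes were measured beside them, and 7 of 12 tested members were called higher, against 0.592% of all tested genes. Of these neutrophil genes 0 were at zero counts, and their summed level was 8966 normalized counts in wild type and 13637 in knockout. They were led by Csf3r (1726 and 2766), Cxcr2 (365 and 732), S100a9 (2144 and 3703) and S100a8 (1083 and 1718). The part of these cells in the values of the myeloid receptors was not tested.

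Lists of cells that carry Cd200, and of stromal cells, had medians below 0 and no called member. Over all tested genes 1.09% were called, 4.43% were higher and 4.04% lower at an unadjusted p under 0.05 (DESeq2). A higher mean was held by 49.4%. Lists of this size would hold few called genes at that share, so the lack of calls is not read as a lack of change. Of 15 endothelial genes, 13 had a lower mean in knockout, 0 were called by DESeq2 and 2 had an unadjusted p under 0.05. Their median log2 ratio was -0.076, and their summed level was 256371 in wild type and 241251 in knockout. Cdh5, the endothelial cadherin, had means of 35257 and 33459. Of 12 B cell genes, 11 were lower in mean, 0 were called by DESeq2 and 4 had an unadjusted p under 0.05 (median -0.13, summed level 12793 and 11728), with Cd79b at 1897 and 1836 and Ms4a1 at 1756 and 1631. Of 12 T cell genes, 7 were lower in mean, 0 were called by DESeq2 and 2 had an unadjusted p under 0.05 (median -0.12, summed level 6127 and 5748), with Tcf7 at 1965 and 1749 and Lck at 739 and 648. Of 12 fibroblast and smooth muscle genes, 11 were lower in mean, 0 were called by DESeq2 and 2 had an unadjusted p under 0.05 (median -0.21, summed level 80525 and 72274), with Col3a1 at 12477 and 11151 and Col1a2 at 12249 and 10284. The lowest log2 ratios in these 4 lists were -0.21 (Plvap), -0.29 (Pax5), -0.28 (Cd6) and -0.32 (Col1a1). The ratio of Cd200 (-0.65) lay below that of each tested member. Cd200 was chosen with its lower call known, and none of these markers was called, so this order is a description. No marker in these lists was at zero. Whether Cd200 differed from them beyond error was not tested.

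**Figure D4:**
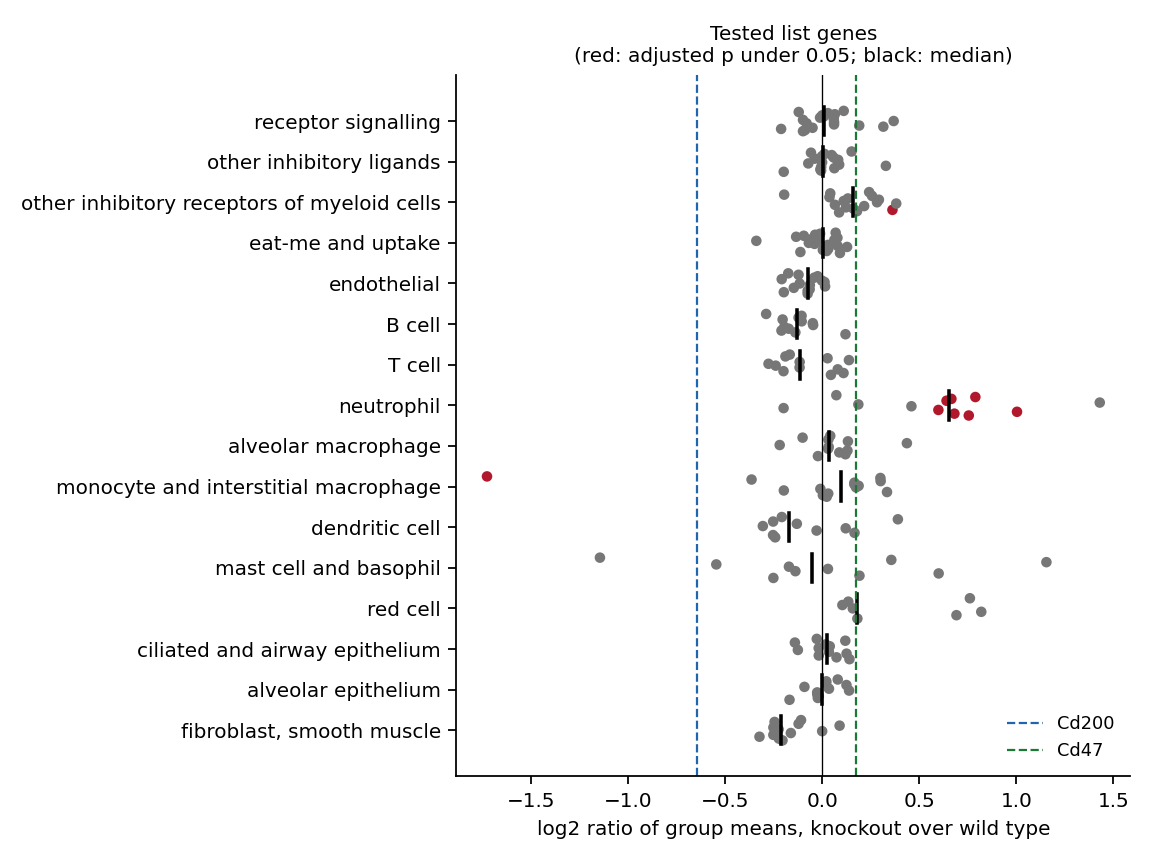
Knockout over wild type, as the log2 ratio of the authors' means, for every tested gene of 16 lists; red points are called genes, short black lines list medians, dashed lines the values of Cd200 (-0.65) and Cd47 (0.17). Endothelial, B cell, T cell and fibroblast genes all lie to the right of the line of Cd200, which was chosen with its lower call known.

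Red cells carry Cd47, so red cell genes were set beside it. All 7 tested red cell genes had a higher mean in knockout, against 49.4% of all tested genes. Of the 7, 0 were called by DESeq2 (background 1.09%) and 1 had an unadjusted p under 0.05. Their median log2 ratio was 0.18, and their summed level was 81738 and 89610 normalized counts. Hbb-bs had means of 35183 and 37794, and Hba-a2 of 26074 and 29072. The log2 ratio of Cd47 was 0.17, and the part of red cells in it was not tested. Epithelial cells carry Cd24a. Of 12 genes of ciliated and airway epithelium, 0 were called by DESeq2 and 1 had an unadjusted p under 0.05 (median 0.025), with Cyp2f2 at 73515 and 77334 and Scgb1a1 at 50719 and 51324. Of 12 genes of alveolar epithelium, 0 were called by DESeq2 and 2 had an unadjusted p under 0.05 (median 0.00064), with Sftpc at 82187 and 83359 and Sftpa1 at 69990.2 and 76289.

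Lists of other cells that carry the receptors had medians on both sides of 0. The shares over all tested genes were 1.09% called, and 4.43% higher and 4.04% lower at an unadjusted p under 0.05 (DESeq2). Of 12 alveolar macrophage genes, 0 were called by DESeq2 and 2 had an unadjusted p under 0.05, 1 in each direction (median 0.037), with Chil3 at 16193 and 17587 and Car4 at 6119 and 6023. Of 14 monocyte and interstitial macrophage genes, 1 was called by DESeq2 and 7 had an unadjusted p under 0.05, 4 higher and 3 lower (median 0.098). The called gene was Nr4a1, an immediate-early nuclear receptor gene, lower at 14598 and 4408. Its log2 ratio of means was -1.73, while its shrunken log2 fold change was -0.28 ± 0.064 (DESeq2 adjusted p = 0.00256). Of 10 dendritic cell genes, 0 were called by DESeq2 and 4 had an unadjusted p under 0.05, 1 higher and 3 lower (median -0.17), with Irf8 at 2635 and 2406 and Clec9a at 1884 and 1846. Of 10 tested mast cell and basophil genes, 0 were called by DESeq2 and 5 had an unadjusted p under 0.05, 1 higher and 4 lower (median -0.055), with Kit at 9341 and 8291 and Gata2 at 5449 and 4950, although both are also expressed outside these cells.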

How the data were processed

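RNA of whole lung was measured in 3 libraries of each genotype. Per the labels' protocols, 500 ng of RNA went into the TruSeq RNA v2 kit, which does not mark strand, and paired ends of 50 bp were read. Per the submitters' processing notes, Bowtie2, STAR 2.5.1b, SAMtools, bedtools, DESeq2 and mm10 were used, with no role or order given. Per the file headers, the authors deposited group means as a signal in normalized counts (counting rule not given in the sources used here), a shrunken log2 fold change with its standard error, the Wald statistic (a score), and a p-value and adjusted p-value. No library counts are held in the table, so no model was refitted. The summed means were 3.71e+07 in wild type and 3.68e+07 in knockout per library, scaled and therefore not a depth.

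Of 20494 rows, 16902 had an adjusted p, and the lowest mean among them was 12.8. Benjamini-Hochberg adjustment of the deposited p-values over these rows gave the deposited adjusted p. Of several rows with 1 symbol, the most abundant was kept. Genes were placed by symbol on GENCODE M21 (17488 of 20135 symbols), the build of the files. Reads per library of low genes were derived from the means, which are sums of whole reads times 1 fixed value per library. Of means up to 45, 722 of 722 checked in wild type and 712 of 717 in knockout fitted a single set of reads. The derivation and the adjustment were tested on simulated data.

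The members and lists were chosen with earlier results of these data known. All members and relatives are named. From each list up to 4 called genes are named, or the 2 most abundant where none was called, as well as the called genes between Atp13a4 and Nxpe3, the nearest tested neighbours of each member and the 5 called genes most like Cd200. Neighbours, and the genes most like Cd200, were drawn from placed genes only. Cd86, Gp49a, Pirb, Siglec1, Gm29233, Mb21d2, Tbc1d23 and the genes of the closing section were named after their values were seen. Alternatives were other sets of genes for the adjustment, a pseudocount of 10, the shrunken fold change, centring on the median, a call at 0.1 and a window of 5 Mb. Labels give each library a title of its own, without saying that each came from a different mouse, and p-values measure the spread between these libraries. Software was Python 3.11.15, pandas 2.3.3 and scipy 1.17.1.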

Additional observations from a re-analysis of the deposited data

How the results depend on the processing

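With adjustment over every gene with a p-value, and over genes whose mean was 50 or more, Cd200 and Cd47 kept their call (adjusted p from 8.34e-06 to 1.08e-05 for Cd200 and from 0.0338 to 0.0432 for Cd47), and Cd24a, Cd200r1, Cd200r4 and Sirpa were not called. The shrunken fold change, a pseudocount of 10 and centring on the median bear on the direction alone, which stayed the same for all 6 members. The count of called members stayed at 2 with a call at 0.1. The count of called genes around Cd200 was 5 of 35 (14.3%) within 5 Mb either side, or 3 of 31 without the members. That window has fewer genes than the stretch between Atp13a4 and Nxpe3, where 11 were called. Without these end genes, an alternative chosen after seeing the data, the stretch had 9. With a call at 0.1 (background 1.77%), 3 genes listed as other myeloid inhibitory receptors were called instead of 1. For the dendritic cell list it was 1 gene instead of 0. With adjustment over every gene with a p-value, 0 relatives were called instead of 1. Leaving out single libraries was possible for Cd200r3 alone, an alternative chosen after seeing the data, and gave log2 ratios from 0.56 to 0.995 against 0.79 with all libraries. For the members it was not run, since their reads per library could not be derived. No paired analysis was possible because values of single libraries were lacking at these levels and the labels give no shared replicate numbers. Depth limits Cd200r2 in particular, with 6 and 8 reads over the 3 libraries of a genotype.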

Other observations

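The stretch of chromosome 16 around Cd200 also holds genes of other immune coreceptors, named here after their values were seen. Cd86, a costimulatory ligand of antigen-presenting cells, had means of 278 in wild type and 348 in knockout (unadjusted p = 0.00643, DESeq2 adjusted p = 0.225). Cd80, its relative, had 133 in both genotypes (DESeq2 adjusted p = 0.999). Btla, an inhibitory receptor of lymphocytes, is given above as a neighbour of Cd200. Cd96, a receptor of T and natural killer cells, had means of 142 and 119 (DESeq2 adjusted p = 0.844), and Tigit, an inhibitory receptor of the same cells, had 16.6 and 16.1 (DESeq2 adjusted p = 0.998). None of these 5 coreceptor genes was called, beside 1.09% of all tested genes.

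Reads of basophil protease genes, named after their values were seen, were set beside those of Cd200r3. Mcpt8, a protease of basophils, had 14, 5 and 23 reads in wild type libraries A, B and C and 42, 28 and 26 in knockout libraries A, B and C (unadjusted p = 0.0300, DESeq2 adjusted p = 0.491). After scaling, the highest wild type library of Mcpt8 (23.9 normalized counts) and the lowest knockout library (26.6) came close. Prss34, another basophil protease, had 2, 1 and 4 reads in wild type and 11, 7 and 7 in knockout (unadjusted p = 0.0637, no adjusted p). In the knockout, library A held the most reads of all 3 genes. Of the mast cell protease genes listed, Cpa3 had a higher mean in knockout (109 and 125 normalized counts), and Tpsb2 (26.1 and 11.8), Mcpt4 (60.4 and 41.3) and Cma1 (55.4 and 46.5) had lower ones, with DESeq2 adjusted p-values from 0.586 to 0.983. None of these genes was called, and their relation to Cd200r3 was not tested.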
